A study of Mus musculus with 4 samples.

Results

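The peaks selective for plasmacytoid dendritic cells (pDC) were 2696 open chromatin regions of mouse liver CD11c+ nuclei, out of 142799 peaks called before any diet. They were chosen by measured values of that library. Nuclei with at least 1000 UMIs (unique molecular identifiers, that is counted RNA molecules) and 3 or more UMIs summed over Siglech, Grm8, Ccr9 and Pacsin1 formed group A, the pDC gate, and nuclei with none of these UMIs formed group B. Transposition cut sites were summed per peak in each group and scaled to CPM, the cut sites per 1000000 cut sites in peaks. A peak became a member when it held 60 or more cut sites in group A and when its CPM in A was at least 4 times the CPM in B plus 0.5, which 1.89% of all peaks did. The minimum of 60 had no effect, since a peak needed 197 cut sites in A to reach this fold at all and the member with the fewest had 224.

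The data came from 10x Multiome, which profiles the RNA and, by ATAC-seq, the open chromatin of each nucleus together. C57BL/6J mice received chow with 0.1% DDC (3,5-diethoxycarbonyl-1,4-dihydrocollidine), an agent that injures bile ducts, for 0 days (D0) or 5 days (D5), and their liver cells were sorted as alive CD45+ CD64- CD11c+ cells before nuclei were isolated. The 4 samples were the RNA and ATAC layers of 1 library per day, with no age, sex or number of animals given in the labels. With 1 library per day no test between days or groups was possible, so exact 95% intervals of single peaks cover counting error alone, and day and library cannot be told apart.

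Plasmacytoid dendritic cells sense viral nucleic acids through endosomal Toll-like receptors and release large amounts of type I interferon. Their identity depends on the E protein Tcf4, a basic helix-loop-helix factor that binds E-box sequences, together with factors such as Runx2, Spib and Irf8. They share several features with B lymphocytes, among them a secretory cytoplasm and a history of immunoglobulin gene transcription. A region open in a single cell type often lies away from start sites, where enhancers are found, whereas promoters tend to be open in many cell types.

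At D0 the gate held 4559 of 14282 kept nuclei and group B 7265, with 98260102 and 74767942 cut sites in peaks. At D5 the same gates gave 3995 and 17939 of 26633 nuclei, with 51037865 and 139549721 cut sites. The list of pDC markers outside the gate was chosen with earlier results of these data known. At D0, 24 of its 25 genes had a higher CPM in A, and 21 were at least 2-fold higher. At D5, 25 of 25 had a higher CPM in A. At least 2-fold higher at D5 were 21, beside 4.9% of all genes with 10 or more UMIs (1 CPM added). Among them were Tcf4 (3765 against 404 CPM of RNA), Blnk, an adaptor of antigen receptor signalling (470 against 17.7) and the inhibitory collagen receptor Lair1 (351 against 32.7). The gate was not pure. At D0, 33.4% of the A nuclei also held 3 or more UMIs of a 6-gene cDC1 list (conventional dendritic cells type 1), against 23.6% of B, and at D5 the shares were 22.2% and 17.1%. For the cDC2 list they were 38.4% and 42.2% at D5. Of 6 endothelial genes, Pecam1, which pDC also express, was higher in A (133 against 43.5 CPM at D5), Kdr had 9.78 against 4.29 CPM, and the liver sinusoid gene Stab2 had 0.990 against 1.59. The part of doublets and of free RNA in this was not tested. Results are therefore also given for the 1387 (D0) and 1091 (D5) A nuclei with at most 1 UMI in each list of the 7 other classes. These nuclei also had fewer UMIs, with medians of 1535 (D0) and 1730 (D5) against 2388 and 2987 in all of A. Both libraries held 591 of the same barcodes (3.63% of those called at D0 and 2.12% at D5).

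Few members lay at promoters, and the sequences of some of those are shown because E-boxes were common in them. RefSeq promoter windows (250 bases before to 50 after a start, GRCm38.p6, the same coordinates as mm10) overlapped 54 members (2.00%), against 9.29% of all peaks with 60 or more cut sites in A. The 250 bases before the start of 5 of these genes are shown. Ppfia4 and Bhlha15 lay under the most cut sites among coding genes, Ccr9 is a gene of the gate, Ube2ql1 stands for a window without a match to the marked motifs, and Arpp21 held the most E-boxes among these. This choice was made after their values were seen. Capitals mark matches on either strand to the E-box forms CAGCTG, then CACCTG, then CATCTG, to the RUNX core TGTGGT, to the ETS site GAGGAAG of the PU.1 and Spib type, or to the composite ETS and interferon regulatory factor site GGAANNGAA, and overlapping matches run together. Matches to other motifs searched are left in lower case, namely CCGCCC (2 in Bhlha15 and 2 in Ube2ql1) and the CTCF core AGGGGGC (1 in Ube2ql1 and 1 in Arpp21).
Ppfia4: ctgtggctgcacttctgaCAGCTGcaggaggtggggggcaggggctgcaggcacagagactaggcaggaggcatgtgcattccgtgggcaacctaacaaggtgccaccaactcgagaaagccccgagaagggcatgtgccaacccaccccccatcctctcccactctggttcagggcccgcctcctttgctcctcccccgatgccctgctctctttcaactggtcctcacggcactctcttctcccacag
Bhlha15: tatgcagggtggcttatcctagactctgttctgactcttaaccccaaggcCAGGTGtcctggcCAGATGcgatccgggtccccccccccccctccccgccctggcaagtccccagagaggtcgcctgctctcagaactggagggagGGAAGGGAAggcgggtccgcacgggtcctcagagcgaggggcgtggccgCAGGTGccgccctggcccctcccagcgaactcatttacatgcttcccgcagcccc
Ccr9: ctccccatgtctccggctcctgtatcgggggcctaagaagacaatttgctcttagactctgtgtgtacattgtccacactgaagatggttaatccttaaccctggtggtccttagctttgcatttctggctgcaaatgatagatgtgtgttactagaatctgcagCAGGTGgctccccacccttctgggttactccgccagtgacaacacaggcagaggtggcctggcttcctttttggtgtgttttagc
Ube2ql1: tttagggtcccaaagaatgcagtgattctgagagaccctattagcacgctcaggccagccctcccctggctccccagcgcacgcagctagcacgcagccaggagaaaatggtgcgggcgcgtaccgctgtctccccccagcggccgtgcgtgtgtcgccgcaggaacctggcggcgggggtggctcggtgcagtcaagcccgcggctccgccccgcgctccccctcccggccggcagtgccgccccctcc
Arpp21: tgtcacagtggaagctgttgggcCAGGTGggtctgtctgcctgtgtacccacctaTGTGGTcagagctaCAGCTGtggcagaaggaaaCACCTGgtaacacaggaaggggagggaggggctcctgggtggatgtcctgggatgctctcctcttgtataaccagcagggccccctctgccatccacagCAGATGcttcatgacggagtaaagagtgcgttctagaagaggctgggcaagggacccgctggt

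These stretches are written 5′ to 3′ along the gene. Ppfia4, a liprin scaffold protein, lies at chr1:134332929-134333178 on the minus strand. The window of Bhlha15, a basic helix-loop-helix factor of secretory cells, is chr5:144190036-144190285 (plus), and that of Ccr9, the gut-homing chemokine receptor, is chr9:123766961-123767210 (plus). Ube2ql1, a ubiquitin-conjugating enzyme, lies at chr13:69739898-69740147 (minus) and Arpp21, a cAMP-regulated phosphoprotein, at chr9:112217262-112217511 (minus). Arpp21 held 4 E-boxes and 1 RUNX core in its stretch, Bhlha15 held 3 E-boxes, and Ppfia4 and Ccr9 held 1 each. At D5 the RNA of Ppfia4 was 74.0 CPM in A and 70.5 in B. RNA was low for Arpp21 (2.85 and 0.188), Bhlha15 (0.867 and 0.103) and Ube2ql1 (0.495 and 0.0342). Ccr9 had 280 and 0 CPM, where the 0 was set by the gate.

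E-boxes were frequent in these promoters compared with others. At least 1 of the 3 forms occurred in 47 of the 60 windows under members (78.3%), against 39.2% of 15355 windows under other peaks with 60 or more cut sites in A and 44.3% of all 32851 windows. The RUNX core occurred in 22 windows (36.7%), against 13.9% and 16.8%, and both an E-box and a RUNX core in 18 of the 60, against 5.85% and 8.18%. In contrast, CCGCCC, a GC box read by KLF and SP factors, occurred in 26.7% of the windows under members, in 60.6% of windows under any peak with 60 or more cut sites in A and in 35.7% of all windows. Base composition moved with these shares, as the median GC content was 51.0% under members, 60.7% under those peaks and 52.7% in all windows. Among windows with 46.6% to 56.1% GC, the quartile range of the member windows, an E-box occurred in 24 of 30 under members, 43.5% of 3896 under other peaks and 51.3% of 10950 in all, and the RUNX core in 36.7%, 18.8% and 20.3%. The 60 windows belong to 54 genes and some overlap, so they are not independent. Only 19 of these genes are protein coding, and gene type was not matched between the sets. GAGGAAG, at 10.0% against 14.6%, was not more frequent under members, and a match describes letters, not binding.

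Most members lay far from start sites. Start sites were both ends of the start interval that the gene table gives for each gene, and starts between these ends were not used. The median distance from the peak edge to the nearest start site of the gene table was 21261 bp (quartiles 8430 and 47906), against 13082 bp for all peaks with 60 or more cut sites in A. When only genes with 10 or more UMIs in the D5 gate were counted, the medians were 39076 and 22956 bp. Only 144 members (5.34%) lay within 1 kb of a start, against 14.9%, while 1696 (62.9%) lay 10 to 100 kb away, against 51.3%, and 225 (8.35%) over 100 kb away, against 5.36%. A RefSeq coding gene body held 1532 members (56.8%), close to the 59.6% of the larger set. Members formed 2.53% of such peaks on chromosome 5 and 1.32% on chromosome 10 at the ends of the autosomes, and 25 of 2958 (0.845%) on the X chromosome.

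**Figure D1:**
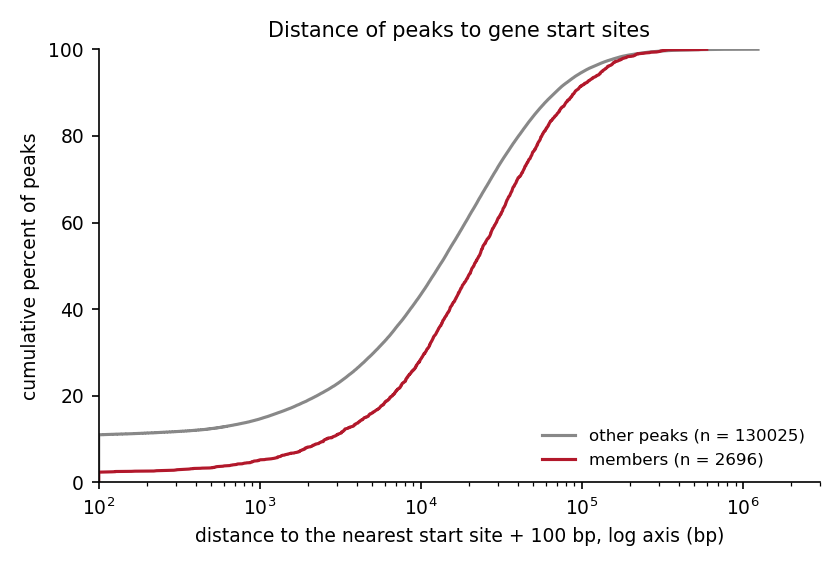
Cumulative percent of peaks by distance from the peak edge to the nearest start site (bp plus 100, log axis), for the 2696 members (red) and all other peaks with 60 or more cut sites in A (grey). The curve of the members lies to the right, with 5.34% within 1 kb.

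When members at most 20 kb apart were joined, 2140 runs formed, of which 1734 were single peaks and 98 held 3 or more members (346 in all). Other peaks were not joined in this way, so the counts describe where members lie and not a trait of them. The densest run with 6 members spanned 9782 bp at chr15:37773422-37783203, near Ncald, which codes for the neuronal calcium sensor neurocalcin delta. Other runs of 6 lay at chr2:102030468-102076762 over Gm13919 and Gm13920 and at chr2:27035766-27085643 near Adamtsl2 and Mymk. All 6 members of each of these 3 runs were past the fold again at D5, and 5 of 6 in the remaining run of this size at chr5:74801887-74823786 near Gm42575.

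The members with the strongest signal included regions within gene bodies. The most cut sites in A (3485) fell in chr17:56444728-56445668 within Ptprs, a receptor tyrosine phosphatase found on pDC, 16548 bp from the nearest start. Its level was 35.5 CPM in A and 2.72 in B at D0, and 46.2 and 2.42 at D5. The peak at chr1:156667160-156668050 in Tor3a, an interferon-responsive gene, had 31.0 and 2.77 CPM at D0 and 35.6 and 2.19 at D5. At chr5:140282368-140283246 in Mad1l1, a gene of the mitotic checkpoint, the ratio that the rule used was the largest of all members, with 21.8 CPM in A and 0.722 in B at D0. It was also the largest at D5, with 26.9 and 0.244 CPM (ratio 36.2, log2 A over B 6.10 to 7.58). At the threshold itself, the 5 members just inside had D0 ratios of 4.001 to 4.004 and the 5 peaks just outside 3.997 to 3.99993. At D5 the 5 inside had ratios of 3.68 to 5.84 and the 5 outside 4.03 to 6.40.

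The D5 library, which the rule did not use, was asked whether the same regions were again selective for the gate. An overlapping D5 peak existed for 2656 members, and their cut sites in the D5 gate (A) and in D5 group B were compared. The D5 value is that of the overlapping peak, which can be wider or narrower than the member. Of these members, 2478 (93.3%) were past the 4-fold rule at D5, against 3.24% of all 122421 D0 peaks with 60 or more cut sites in A and a D5 peak. At least 2-fold selectivity was seen in 2653, against 9.25% of the larger set, and all 2656 had a higher level in A than in B, as did 55185 of the 122421. The median D5 ratio was 6.89 (quartiles 5.38 and 9.16, range 1.93 to 36.2), beside 5.34 at D0 for the same members and 0.815 at D5 for the larger set. The interval of log2 A over B lay above 0 for 2656 of 2656 members and above 2, which is 4-fold with nothing added to B, for 2543. Such intervals were not counted over the larger set, so no share stands beside these counts.

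The share past the fold followed the D0 ratio. It was 85.4% for D0 ratios of 4 to 5, 97.4% for 5 to 6, 99.3% for 6 to 8 and 100% above 8. With only the 1091 D5 nuclei low in every other list as A, 2642 members (99.5%) were past the fold, and the larger set rose to 6.37%. With nuclei of 2000 or more UMIs the share was 81.4%. Without the shared barcodes it was 93.6%.

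**Figure D2:**
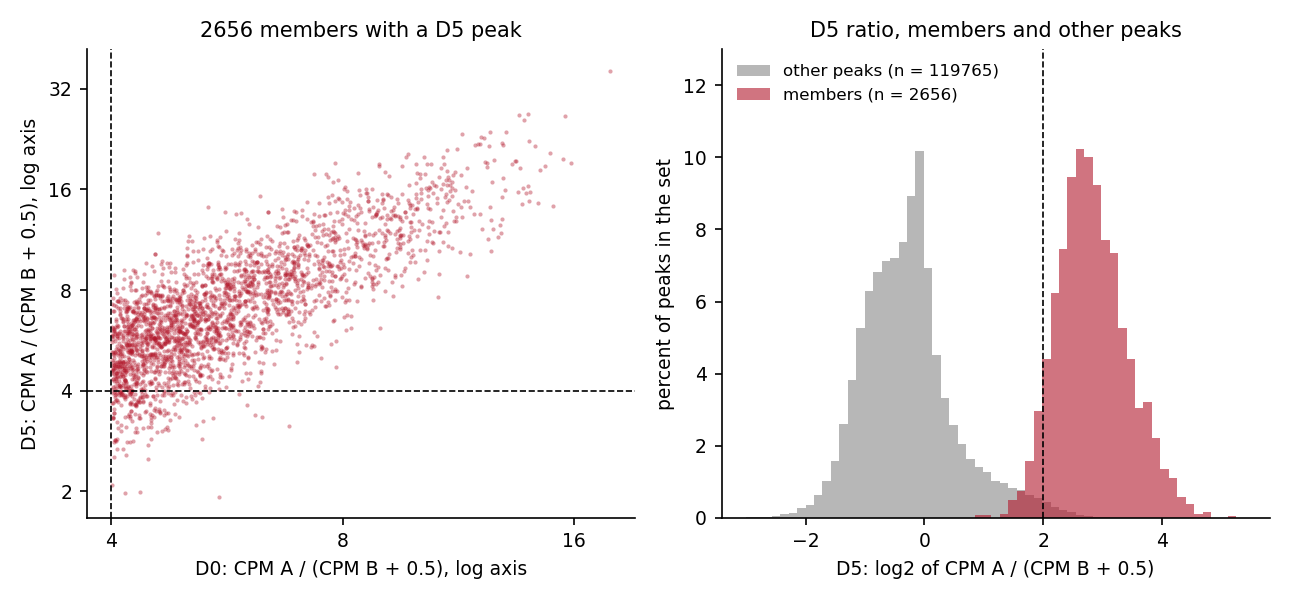
Left, the ratio CPM A / (CPM B + 0.5) at D0 and D5 for each of the 2656 members with a D5 peak (log axes, dashed lines at 4). Right, the D5 ratio on a log2 axis as percent of the set, for members (red) and other peaks with 60 or more cut sites in A (grey). Members center on a ratio of 6.89 at D5, and 2478 lie above the dashed line.

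The members with the lowest D5 ratios still had more signal in A than in B. At chr10:41552758-41553266, 496 bp from Gm17196, the level was 18.2 CPM in A and 2.80 in B at D0, and 11.7 and 5.57 at D5 (ratio 1.93). Near Egln3, a prolyl hydroxylase of the hypoxia pathway, it was 4.65 and 0.615 at D0 and 3.59 and 1.32 at D5. Near Gm16046 on chromosome 17 it was 19.2 and 4.28 at D0 and 27.7 and 12.8 at D5. In this last peak both groups had more signal at D5, group B by the larger factor.

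For 40 members (1.48%) no D5 peak overlapped, which says nothing of their D5 level. Their D0 signal was not low, with a median of 694.5 cut sites in A against 736 for the rest, and a D5 peak began within 9 to 3051 bp of each. They included the Tm4sf5 peak with 2942 cut sites (29.9 CPM in A and 3.44 in B), the Lag3 peak at chr6:124900003-124900694 (24.0 and 3.22), both Pacsin1 members and the Ccr7 member. Among other peaks with 60 or more cut sites in A, 7.89% had no D5 peak. Conversely, the rule applied to the D5 library selected 3989 D5 peaks. Of the D0 members 2479 (92.0%) overlapped one of these, and 2477 of the D5 peaks (62.1%) overlapped a D0 member. Only 22 of the 3989 overlapped no D0 peak. The share of all D0 peaks over one of the 3989 was not counted. Among other D0 peaks with 60 or more cut sites in A and a D5 peak, 1490 of 119765 (1.24%) were past the fold at D5.

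The level of the members within the gate was compared between the days. The median log2 ratio of D5 over D0 (CPM with 0.5 added) was 0.23 (quartiles 0.10 and 0.35), with 2302 members higher and 354 lower at D5. In the larger set the median was -0.09, with 47268 peaks higher and 75153 lower. For the members, with no such count made over the larger set, the counting interval lay above 0 for 1330, below 0 for 21 and held 0 for 1305. The D0 level in A, a part of this ratio, was also among the values that chose the members. In A nuclei low in every other list, which also had fewer UMIs, the median log2 ratio was 0.02, against -0.06 in the larger set. The parts of the other markers and of UMI depth in the difference were not tested beyond this.

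The largest single differences were modest. The highest was at chr4:9448014-9448845, 815 bp from Gm11817 in Clvs1 (2.61 CPM in A at D0 and 5.33 at D5, log2 0.91, interval without the added 0.5 of 0.67 to 1.39). The AU040320 member at chr4:126770301-126770645 had 4.57 and 8.74 CPM, but 1 D5 peak covers it and the neighboring member, and a peak over 8030423F21Rik 5.37 and 9.80. The lowest was near Rfx4, with 2.85 and 1.61 CPM (log2 -0.67). At Raph1, which codes for the actin regulator lamellipodin, the values were 4.56 and 3.11 CPM.

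The D5 nuclei were then divided into classes by their RNA, each with 3 or more UMIs of its own list and at most 1 of every other. The pDC-gate class (1091 nuclei) had 4.65% of its cut sites in the D5 peaks over members. The share was 0.280% in cDC1 (1876 nuclei), 0.276% in cDC2 (5216), 0.316% in Ccr7 DC (743, mature migratory dendritic cells), 0.198% in NK and T (1322), 0.153% in C1q macrophages (103) and 0.351% in nonclassical monocytes (53). No nucleus met the B cell class. Of the 2656 members, 2648 (99.7%) had their highest CPM in the pDC-gate class, against 20.3% of the larger set. The remaining 8 were highest in the nonclassical monocyte class, whose 53 nuclei held 396401 cut sites in peaks. When only the 5 classes of 500 or more nuclei were compared, all 2656 were highest in the pDC-gate class.

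The median member had 14.7 CPM in the pDC-gate class and 0.632 in cDC1, 0.568 in cDC2, 0.606 in Ccr7 DC and 0.453 in NK and T. In the 2 small classes the median was 0. A total of 2071 members (78.0%) were at least 4 times above every other class plus 0.5, against 3.17% of the larger set, and 2532 (95.3%) at least 2 times, against 7.35%.

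**Figure D3:**
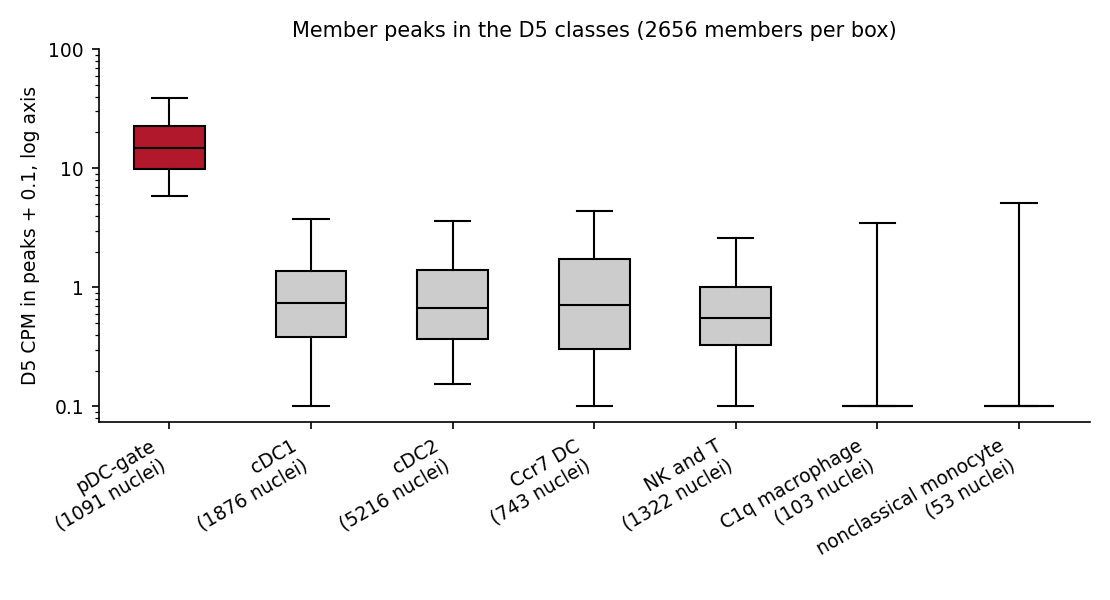
CPM of the 2656 members in the 7 D5 classes (0.1 added, log axis). Boxes give quartiles and medians, whiskers the 5th to 95th percentile, and in the 2 smallest classes the median and quartiles are at 0 CPM. The pDC-gate class (red) has a median of 14.7 CPM, and the other 6 have medians of 0.632 or less.

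Among nuclei with at least 1000 cut sites in peaks, the share in member peaks was low at 0 or 1 gate UMIs and higher from 2 or 3 on. At D5 the median was 0.192% with 0 gate UMIs, 0.221% with 1, 0.483% with 2, 2.86% with 3 to 5, 3.46% with 6 to 10 and 3.66% above 10. Among nuclei low in every other list it was 0.226%, 0.358%, 1.65%, 5.07%, 5.23% and 5.06%. In these low nuclei the level at 3 to 5 gate UMIs was thus about that of nuclei with more. Of 16155 D5 nuclei with no gate UMI, 134 (0.829%) reached the 10th percentile of nuclei above 10 gate UMIs, and at D0 113 of 6710 (1.68%) did. At D0 the members were selected on nuclei with 0 and with 3 or more gate UMIs, while those with 1 or 2 were in neither group. There the median among low nuclei was 0.208% with 0, 0.287% with 1, 3.93% with 2 gate UMIs (115 nuclei) and 4.91% with 3 to 5 gate UMIs. Over all D0 nuclei it was 0.567% with 2 and 3.10% with 3 to 5.

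**Figure D4:**
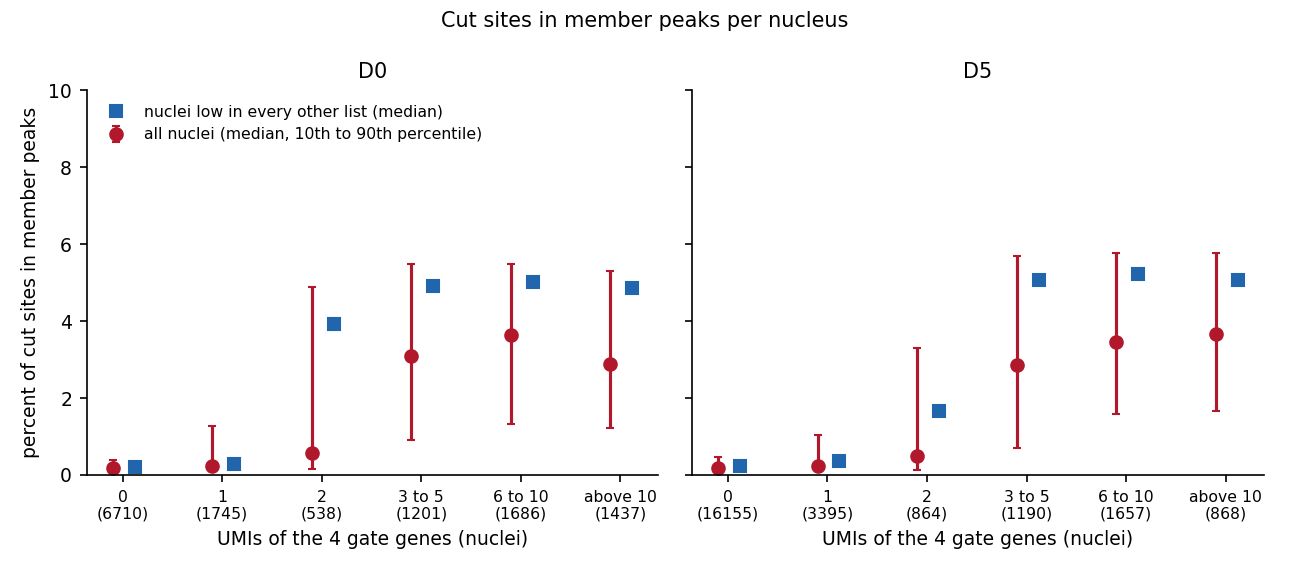
Percent of cut sites in member peaks per nucleus by the UMIs of the 4 gate genes, at D0 (left) and D5 (right), with the number of nuclei in parentheses. Red points are medians with the 10th to 90th percentile and blue squares medians of nuclei with at most 1 UMI in every other list. At D5 the median goes from 0.483% at 2 UMIs to 2.86% at 3 to 5.

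All 4 gate genes were nearest to members, 5 for Grm8 and 2 for each of the others. Siglech, a sialic acid-binding lectin of mouse pDC, had a member 23016 bp away at chr7:55744249-55745168, with 20.3 CPM in A and 1.35 in B at D0 and 26.5 and 1.72 at D5. The other Siglech member had 9.45 and 1.73 CPM at D0 and 11.1 and 2.38 at D5, below the fold at D5 with a ratio of 3.85. All 5 members at Grm8, a glutamate receptor, and both at Ccr9 were past the fold at D5, and neither Pacsin1 member had a D5 peak. The Ccr9 member covering the RefSeq promoter shown above (chr9:123766737-123767622) had 10.7 and 1.24 CPM at D0 and 12.3 and 0.924 at D5. The nearest end of the start interval in the gene table lies 6918 bp from it.

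Among 25 other pDC marker genes, 12 were nearest to a member and 17 had one within 100 kb, against 7.73% and 26.0% of genes with 10 or more UMIs at D5. This list was chosen with earlier results of these data known. The peak 193 bp from Klk1, a kallikrein, had 10.9 CPM in A and 0.655 in B at D0 and 15.9 and 0.566 at D5. The Lair1 peak had 17.0 and 2.18 at D0 and 24.2 and 1.89 at D5. At Bst2, the interferon-induced tetherin used as a pDC surface marker, a peak 1143 bp away had 18.8 and 3.92 at D0 and 21.8 and 5.76 at D5, and its D5 ratio of 3.48 was below the fold. Ly6d, Cox6a2, Cd300c, Bcl11a, Lifr and Upb1 had RNA at least 2-fold higher in A but no member within 100 kb.

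Of 22 genes for transcription factors of the pDC and dendritic cell network, 4 were nearest to a member (18.2%, beside 7.73% of genes with 10 or more UMIs). Within 100 kb, 12 had one (54.5%, beside 26.0%). Tcf4, Spib and Irf8 among the nearest were also counted among the pDC markers, as were Runx2 and Irf7 among those within 100 kb. The Irf8 peak at chr8:120798259-120799131, 59620 bp from the start, had 14.8 CPM in A and 2.61 in B at D0 and 18.1 and 2.57 at D5. Spib, an ETS factor, had 2 members, and the stronger had 9.32 and 1.12 at D0 and 10.95 and 1.11 at D5. Tcf4 was the nearest gene of only 1 member (4.67 and 0.508 at D0, 4.47 and 0.444 at D5), although its RNA was the highest of the named factors. Members with a start of another gene closer by are not in this count. Cbfa2t3, a corepressor, had a member (14.3 and 2.39, then 16.3 and 1.81) while its RNA was 314 CPM in A and 357 in B. Across this list 8 genes had RNA at least 2-fold higher in A, and 6 of these had a member within 100 kb, as did 6 of the 14 others. Over all genes tested, 58.1% of the 828 raised genes had one, and 24.3% of the 16078 within 2-fold.

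Of 23 genes of the interferon and nucleic acid sensing pathway, 2 were nearest to a member (8.70%, beside 7.73% of genes with 10 or more UMIs) and 11 had one within 100 kb (47.8%, beside 26.0%). RNA was at least 2-fold higher in A for 3 of them with 1 CPM added to both groups, and for 4 with none added (Tlr12, with 8.05 and 3.61 CPM). Tlr9, the receptor for unmethylated DNA, had a member 10977 bp away (7.22 and 0.963 CPM at D0, 6.72 and 0.781 at D5), with low RNA at 3.16 and 2.12 CPM. Ifnar2, a chain of the type I interferon receptor, had one with 5.83 and 0.883 at D0 and 4.78 and 0.702 at D5, a D5 ratio of 3.98. Tlr7, the receptor for single-stranded RNA, had RNA of 74.1 and 8.53 CPM and 1 member within 100 kb, of which it was not the nearest gene. Tlr7, Tlr9 and Irf7 of this list were also counted among the pDC markers.

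In the homing and adhesion list, 4 of 15 genes were nearest to a member (26.7%, beside 7.73% of genes with 10 or more UMIs). Within 100 kb, 8 had one (53.3%, beside 26.0%), and both counts include Ccr9, a gene of the gate. The Cxcr4 peak had 7.28 CPM in A and 0.776 in B at D0 and 8.58 and 0.853 at D5, although the RNA of this chemokine receptor was 109 CPM in A and 137 in B. In the secretory and receptor list, 7 of 22 were nearest and 11 within 100 kb, counting Siglech of the gate. Bst2, Mzb1, Ptprs and Lair1, which are in both counts, were also counted among the pDC markers. Apart from these and Siglech, only Lag3 and Ptprf of this list were nearest to a member. Ptprf, a receptor phosphatase, had a peak with 6.27 and 0.909 at D0 and 9.86 and 1.51 at D5, and RNA of 44.9 and 2.14 CPM. The peak over the start of Mzb1, a chaperone of antibody-secreting cells, had 9.09 and 1.74 at D0 and 11.8 and 1.30 at D5. Among genes of other cell types, those with a member within 100 kb were 3 of 6 genes of the cDC2 list (2 as nearest gene), 3 of 7 of the B cell list (1 nearest), 2 of 6 of the nonclassical monocyte list, 2 of 6 endothelial genes, and 1 of 6 each of the cDC1 (Xcr1), Ccr7 DC (Ccr7, also as nearest gene) and hepatocyte (Ttr) lists, beside the 26.0% of genes with 10 or more UMIs. The cDC1 gene Cadm1 was nearest to 2 members, both over 100 kb away. None of the 10 genes of the NK and T list or the 7 of the C1q macrophage list had one.

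Members also lay in immunoglobulin light chain loci, a group singled out after its values were seen. In 8 cases the nearest gene was a segment of the lambda locus (chr16:19066674-19246459), with D0 ratios of 5.00 to 15.6. A D5 peak existed for 7 of these and all 7 were past the fold, with D5 ratios of 7.63 to 26.5. The peak over Iglj3 had 11.9 CPM in A and 0.415 in B at D0 and 13.3 and 0.0573 at D5. At D5 the RNA of Iglc3, a lambda constant gene, was 75.1 CPM in A and 8.43 in B, and that of Dntt, the DNA polymerase that adds bases at V(D)J junctions, was 68.1 and 1.88. Iglc2 had 14.4 and 0.991 CPM. Iglc1, Iglv1 and Rag1 had little or no RNA, with 7, 1 and 0 UMIs in A. Among peaks with 60 or more cut sites in A, 3 of the 7 nearest to the kappa constant gene Igkc were members. For Blk, a B cell kinase, 3 of 8 were, beside 2696 of all 132721. At D5 RNA was also higher in A for Igkc (26.8 against 2.24 CPM), Blk (33.5 against 1.09) and the heavy chain gene Ighm (219 against 73.9). The other peaks of the lambda locus were not counted. Of the 7 genes of the B cell list at D5, Ighd had 11.8 CPM in A and 1.57 in B, Cd79b had 9.10 and 7.28, and Cd79a had 3 UMIs in all 3995 A nuclei. The summed list was 23.4 CPM in A and 10.0 in B, and no nucleus met the B cell class.

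The RNA of the genes nearest to members was read at D5. Members had 1987 nearest genes, of which 1512 had 1 member, 324 had 2, 134 had 3 or 4 and 17 had 5 or more. Of the 1307 with 10 or more UMIs and outside the gate, 292 (22.3%) had RNA at least 2-fold higher in A (CPM with 1 added), against 4.9% of all 16909 genes tested. The share was 18.5% with 1 member, 28.6% with 2 and 49.4% with 3 or 4, and 4 of 11 genes with 5 or more. Genes nearest to peaks of 60 or more cut sites but to no member reached 3.55%. No nearest gene was 2-fold lower in A, and of all genes only 3 were. With A nuclei low in every other list, the share was 35.0% against 11.3%. Counted the other way, 35.3% of the 828 raised genes were nearest to a member and 58.1% had one within 100 kb, and of 82 genes raised at least 8-fold 62.2% and 80.5%. Of the 16078 genes within 2-fold these shares were 6.31% and 24.3%.

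**Figure D5:**
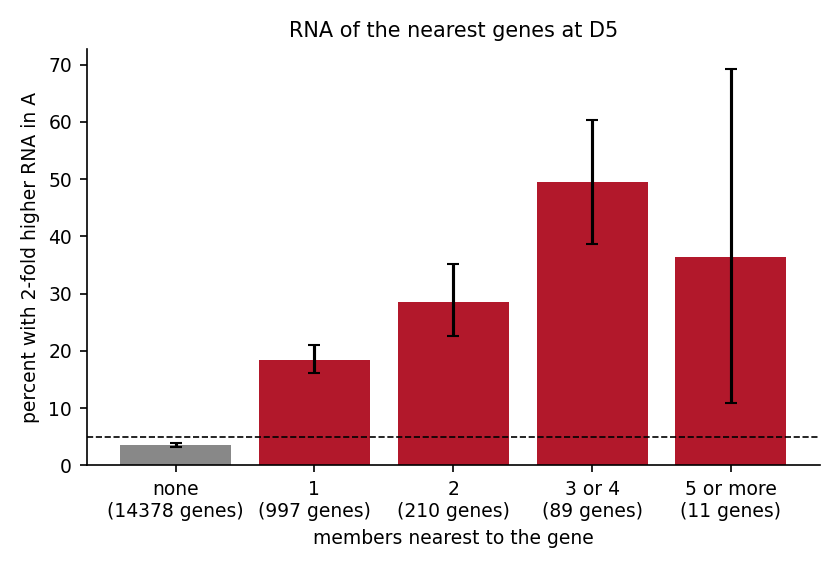
Percent of genes with RNA at least 2-fold higher in the D5 pDC gate (A) than in group B, by the number of members to which the gene was nearest, with exact binomial 95% intervals over genes, which are not independent replicates. The dashed line is the 4.9% of all genes tested. Genes with 3 or 4 members reach 49.4%, and the bar for 5 or more rests on 11 genes.

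Cmah, which modifies sialic acid, had the largest RNA ratio (CPM with 1 added) among nearest genes outside the gate, with 348 CPM in A and 4.46 in B. Its member 14474 bp away was past the fold at D5 (ratio 7.11). Mctp2, a membrane calcium sensor, had 1279 and 31.2 CPM of RNA and 2 members, and Ncald had 177 and 3.69 and 4 members. The kinase gene Prkca (863 and 24.7), Agbl1, Efna5, Ppm1e, Dntt, Tmem163 and Sema4b completed the first 10, each with 1 to 5 members as the nearest gene. Efna5, an ephrin ligand, had 50.9 and 0.803 CPM. Among genes with the most members, Sdk1, a cell adhesion gene, was nearest to 9, yet its RNA was low at 2.41 and 1.30 CPM. Dnajc13, an endosomal chaperone partner, had 5 members and RNA of 315 and 58.7 CPM. Rpl31, a ribosomal protein gene, and Psmg4, a proteasome assembly chaperone, were also nearest to 5 each, with RNA at 970 and 1004 CPM and at 45.2 and 49.9 CPM. These 2 genes thus had many members and RNA that differed by less than 2-fold.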

How the data were processed

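RNA and ATAC layers of 2 Multiome libraries (D0 and D5) were analysed. Per the file headers, the deposited counts were made by the authors with Cell Ranger 6.0.2 (RNA UMIs of called barcodes) and Cell Ranger ARC 2.0.2 (UMIs and cut sites, with peaks called in each library alone), on mm10 per the labels. Counting settings and any doublet removal are not given in the sources used here, and no doublet caller was run. Layers were joined by barcode at D0. The D5 joint matrix was joined through identical gene counts, which matched 27873 of 27873 called barcodes.

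Nuclei with at least 1000 UMIs were kept, with no upper limit. Values were computed with Python 3.11.15, numpy 2.4.6, scipy 1.17.1 and pandas 2.3.3. CPM uses cut sites in peaks (RNA: UMIs), and intervals are exact at 95%, with 2 cut sites counted as 1 fragment for ratios. Distances run from the peak edge to the start interval of the gene table. D5 peaks overlapping by at least 1 base were summed per D0 peak. Motif windows planned at peak centres were replaced by RefSeq promoters (GRCm38.p6), as no genome was used here. D0 depth was 44496348 UMIs and D5 94374499 in called barcodes, with 215252467 and 239039209 cut sites. The code for these steps was tested on simulated data.

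The members and gene lists were chosen with earlier results of these data known. Named peaks were those with the most cut sites, the largest ratios, the extremes at D5 or between days, those at the threshold, and the strongest per listed gene. Named genes were those nearest to 5 or more members or with the largest RNA ratio. Other names were chosen after their values were seen.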

Additional observations from a re-analysis of the deposited data

Results flagged for a closer look

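A total of 22 D5 peaks passed the same rule at D5 (4-fold in A over B with 0.5 added, 60 or more cut sites in A) but overlapped no D0 peak, so they could not enter the member set. This is signal outside the D0 peaks on which the members rest. They held 125 to 617 cut sites in the D5 gate (median 214), with ratios of 4.09 to 9.85 (median 5.14). The peak with the most cut sites was chr15:74723009-74723875 near Them6 (12.1 CPM in A and 2.06 in B). The largest ratio was at chr9:57273783-57274586 near 1700017B05Rik (11.6 and 0.674 CPM). Peaks were called separately in each library, so the D0 signal in these regions was not measured. Of all 147725 D5 peaks, 3989 passed the rule at D5. The D5 peaks over no D0 peak were not counted as a set, so no share stands beside the 22.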

How the results depend on the processing

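Across 13 results and 45 alternatives, 22 stayed within the limit set for them and 23 moved past it. The limit was 1.5 times for the number of members and the quartiles for the share per nucleus. For the others it was the 95% interval over peaks, genes or windows. These intervals treat peaks, genes or windows of 1 library as independent, so small shifts can pass them. The counts of 22 and 23 therefore do not measure variation between libraries. A reversal could be recorded only for the median of D5 over D0 in the gate, and none was. A minimum of 30 or of 120 cut sites could not change the number of members, since 197 were needed to reach the fold. Of the alternatives 34 were planned and 11 were chosen after seeing the data. The number of members (2696) was 1582 with nuclei of 2000 or more UMIs, 4823 at a fold of 3, 388 at a fold of 8, 7396 with nothing added to group B, 8627 with cut sites per nucleus and 6687 with A nuclei low in every other list, a set that kept 2684 of the members (99.6%). Within 1.5 times, it was 1888 in a gate without Grm8, which kept 1887 of the members, and 2098 without Siglech, which kept 2093. The share past the fold at D5 (93.3%) was 81.4% with nuclei of 2000 or more UMIs, 94.6% at a gate of 5 UMIs, 98.2% with nothing added, 95.4% with TMM factors and 99.5% with A low in every other list. It was 94.4% at a gate of 10 UMIs and 99.0% with at most 5000 UMIs, both chosen after seeing the data. The median log2 of D5 over D0 in the gate (0.23) was 0.32 with TMM factors, 0.28 at a gate of 5 UMIs and 0.025 with A low in every other list (chosen after seeing the data). The median distance (21261 bp) was 39076 bp to genes of 10 or more UMIs in the gate (larger set 22956 bp), and the share within 1 kb (5.34%) was 3.93% from the peak centre. The share of nearest genes raised (22.3%) was 9.72% at an RNA fold of 4, 26.3% with 100 or more UMIs and 35.0% with A low in every other list (chosen after seeing the data). The share of members highest in the pDC-gate class (99.7%) was 100% with classes of 500 or more nuclei (chosen after seeing the data), and CATCTG (35.0%) occurred in 21.7% of windows of 200 bases. The causes were not tested. No paired analysis was possible because each day has 1 library, so the groups share fewer than 2 replicate numbers. In single peaks the counting interval of the difference between days held 0 for 1305 of 2656 members, and the part of depth in this was not tested.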
